A study of Mus musculus with 6 samples.

Results

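Messenger RNA of 9 transcription factors of the STAT and IRF families, Stat2, Stat3, Stat6, Irf1, Irf3, Irf5, Irf7, Irf8 and Irf9, was examined in mouse macrophages with and without zoledronic acid (ZA), a bisphosphonate that inhibits farnesyl diphosphate synthase. The 9 genes were chosen by symbol as the STAT and IRF factors of interferon and cytokine signalling, and all 9 were found among the 35383 gene rows of the deposited table that could be read. Bone marrow-derived macrophages (BMDMs) were grown from femoral marrow of C57BL/6 mice with M-CSF and sequenced in bulk as 3 Ctrl libraries without ZA and 3 ZA libraries, taken 12 h after ZA was added. The ZA concentration behind these libraries was not given in the sources used here. Nothing in the labels says whether the libraries of a group came from separate mice or cultures, so p-values measure only the spread between these libraries. In bulk RNA, fewer cells that carry a transcript and less of that transcript in each cell cannot be told apart.

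STAT proteins wait in the cytoplasm until Janus kinases, bound to cytokine and interferon receptors, phosphorylate them. They then pair, enter the nucleus and bind DNA. IRF proteins share a DNA-binding domain that reads GAAA repeats: IRF3 and IRF7 are switched on by kinases behind sensors of foreign nucleic acid and start the transcription of type I interferon, while IRF9 joins STAT2 in the complex that carries the interferon signal to antiviral genes. Several of these genes, with Irf7 and Stat2 among them, are themselves raised by interferon. Much of the activity of both families is set by phosphorylation, which RNA sequencing does not measure.

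The libraries held between 41230600 and 42155808 fragments. FPKM is the number of fragments scaled by the length of the gene and by the total of its library, and fold changes are differences of log2(FPKM + 1), ZA minus Ctrl, from limma over the 9800 genes whose FPKM averaged 1 or more over all libraries. At an adjusted p under 0.05, ZA was higher for 20 of these genes and lower for 16, and the median log2 fold change was 0.010. All 9 macrophage markers had a mean of at least 1 FPKM, with a summed level of 23737 to 27633 FPKM in Ctrl and 24617 to 28123 FPKM in ZA. Most of the sum was Lyz2, at 20472 to 24669 FPKM. Csf1r (mean 772 FPKM in Ctrl and 835 in ZA), Adgre1 (532 and 581), Cd68 and Cd14 were above Ctrl in every ZA library. The groups of the other macrophage markers overlapped. Markers of neutrophils and myeloid progenitors summed to 37.1 to 52.5 FPKM in Ctrl and 33.2 to 37.9 FPKM in ZA, with Ly6g at 0. Of these, Mpo (mean 2.51 FPKM in Ctrl and 1.70 in ZA), Elane (2.47 and 1.87), Prtn3 (2.25 and 1.53) and Ngp (4.47 and 3.49) were below Ctrl in every ZA library. S100a8, S100a9 and Kit had overlapping groups. Over all genes tested, every ZA library was above all Ctrl libraries for 11.4% and below them for 6.76%. Lists for B cells, T and NK cells, plasmacytoid and conventional dendritic cells and mast cells each summed to under 4 FPKM in every library. Stromal markers summed to 9.86 to 19.3 FPKM in Ctrl and 8.52 to 13.9 FPKM in ZA. Of these, Cxcl12 (mean 1.38 FPKM in Ctrl and 0.843 in ZA) and Cdh5 (0.703 and 0.318) were below Ctrl in every ZA library. The groups of Col1a1, Col1a2 and Pdgfrb overlapped. The part of these other cells in any value below was not tested.

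The promoters of the 4 genes with the lowest p-values below are shown because interferon is known to act on genes of this kind through 2 short DNA elements. The sequences come from RefSeq with build GRCm38.p6 and run 5′ to 3′ along the gene, from 250 bases before the transcription start to 50 bases after it. Capitals mark a match to the core of the interferon-stimulated response element, searched as GAAA followed by 2 free bases and a second GAAA, or to TTCNNNGAA, the gamma-activated site that STAT pairs bind, with N for any base. For Irf1 and Irf9, which have 2 listed starts each, the window with the lower coordinates is given. The windows are chr10:128270248-128270547 on the plus strand for Stat2, chr7:141266375-141266674 on the minus strand for Irf7, chr11:53769764-53770063 on the plus strand for Irf1 and chr14:55603735-55604034 on the plus strand for Irf9.
Stat2: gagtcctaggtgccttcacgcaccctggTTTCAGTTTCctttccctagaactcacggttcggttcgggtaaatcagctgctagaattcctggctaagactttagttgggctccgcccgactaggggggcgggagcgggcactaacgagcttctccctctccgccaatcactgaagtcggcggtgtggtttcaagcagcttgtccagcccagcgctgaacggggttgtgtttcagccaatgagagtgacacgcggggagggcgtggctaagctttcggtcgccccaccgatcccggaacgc
Irf7: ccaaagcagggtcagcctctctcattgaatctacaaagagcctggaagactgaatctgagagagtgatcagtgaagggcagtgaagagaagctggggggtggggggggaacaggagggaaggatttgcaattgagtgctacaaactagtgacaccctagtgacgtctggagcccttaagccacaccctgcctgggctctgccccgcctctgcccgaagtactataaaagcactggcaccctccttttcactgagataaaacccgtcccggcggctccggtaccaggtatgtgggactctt
Irf1: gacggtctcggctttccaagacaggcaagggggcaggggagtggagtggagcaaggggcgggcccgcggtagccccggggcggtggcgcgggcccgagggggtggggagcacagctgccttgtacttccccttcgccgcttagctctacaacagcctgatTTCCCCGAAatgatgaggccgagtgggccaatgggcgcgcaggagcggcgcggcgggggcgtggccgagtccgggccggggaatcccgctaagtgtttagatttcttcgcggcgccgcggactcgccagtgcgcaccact
Irf9: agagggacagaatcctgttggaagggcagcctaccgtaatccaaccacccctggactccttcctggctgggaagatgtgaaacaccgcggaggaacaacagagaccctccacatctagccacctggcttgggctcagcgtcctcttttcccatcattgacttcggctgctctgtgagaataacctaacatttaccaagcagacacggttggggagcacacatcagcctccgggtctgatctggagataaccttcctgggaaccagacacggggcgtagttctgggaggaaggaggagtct

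Both elements were searched on both strands in the 12 windows that RefSeq lists for the 9 genes. The Stat2 window held the interferon-stimulated core once, on the reverse strand, starting 222 bases before the transcription start in RefSeq. Such a match is in 3.44% of 32851 mouse promoter windows of the same length. The last 20 bases of the Stat2 window were found in no GENCODE M21 transcript of Stat2, in either direction. Those of the other windows were found in the forward direction. The gamma-activated pattern, which reads the same on both strands, was found 90 bases before the start of Irf1 and, in the Irf8 window at chr8:120736108-120736407 on the plus strand, 171 and 153 bases before the start. In the Irf8 window the matched letters were TTCTCGGAA and TTCAGAGAA. A gamma-activated pattern is in 8.3% of all windows. The windows of Irf7, Irf9, Irf3, Irf5, Stat3 and Stat6 held neither pattern, which says only that these letters are not in the 300 bases searched.

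All 9 genes were expressed in every library. FPKM, which is per gene length, allows their levels to be ordered, given the lengths behind the deposited values. These lengths, recovered with the fragments, differed from the exon bases in the GENCODE M21 gene models. For Irf5 they were 7512 against 2905 bases and for Stat3 4601 against 9527, so the order is that of the deposited FPKM only. Irf8, a factor of monocyte and macrophage development, was highest with a mean of 85.3 FPKM over the 6 libraries and a range of 82.6 to 87.0 FPKM. Stat6, the factor of interleukin-4 signalling, followed at 72.3 FPKM with a range of 70.5 to 74.8. Irf7 had a mean of 40.5 FPKM but ranged from 29.2 to 58.3, so that it was above Stat3 in only 3 of 6 libraries. Stat3, which carries signals of interleukin-6 and interleukin-10, had a mean of 35.0 FPKM, and Irf5, which acts behind Toll-like receptors, one of 31.8 FPKM. The next 3 genes were not separated from each other. Irf1 (25.0 FPKM) and Irf9 (24.9 FPKM) were each the higher in 3 of 6 libraries, and Irf9 was above Stat2 (23.6 FPKM) in 5 of 6. Irf3 was lowest at 14.2 FPKM, below every other gene in all 6 libraries. The other neighbours in this order did not overlap.

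**Figure D1:**
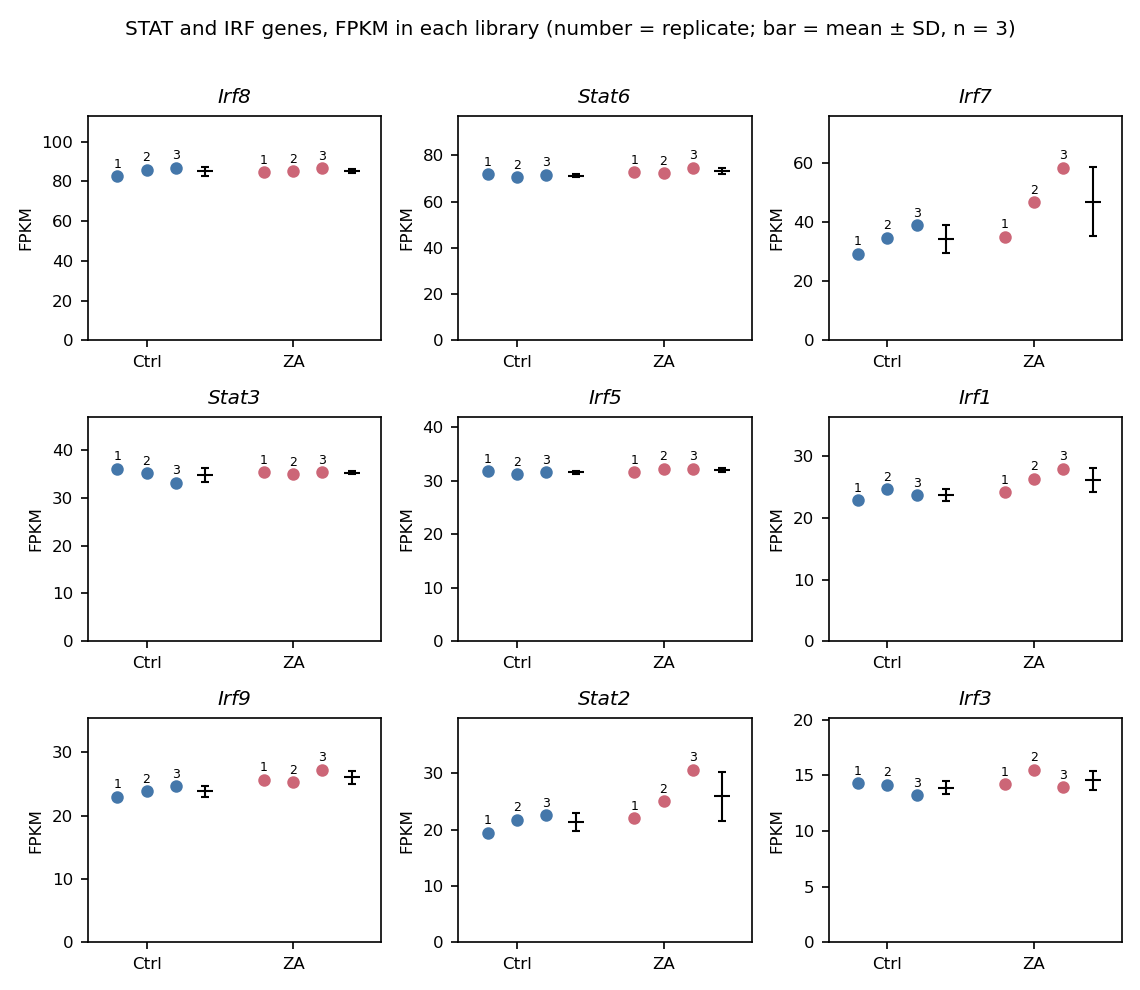
FPKM (vertical axis, from 0) of the 9 STAT and IRF genes in each Ctrl library (blue) and ZA library (red), ordered by mean level; the number over a point is the replicate and the bar beside each group is the mean ± SD of 3 libraries. Irf7 runs from 29.2 to 58.3 FPKM with overlapping groups, whereas Irf8 stays between 82.6 and 87.0 FPKM.

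The comparison of ZA with Ctrl asks whether 12 h of ZA was accompanied by a change in the RNA of these factors. The mean on the log2 scale was higher in ZA for all 9 genes, against 56.9% of all genes tested, but for Irf8 the sign turned when libraries were centred on the median or quantile normalized. No gene of the 9 passed an adjusted p of 0.05, a threshold that 0.367% of all genes passed. At an unadjusted p under 0.05 there were 4, Irf7, Stat2, Irf1 and Irf9, all higher in ZA and none lower, where 7.50% of all genes were higher and 4.85% lower. The ZA libraries lay above all Ctrl libraries for 2 genes, Irf9 and Stat6, and below them for none, against 11.4% and 6.76% of all genes.

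Irf7, the factor that amplifies interferon transcription and is itself induced by interferon, showed the largest difference of the 9. Its FPKM was 29.2, 34.7 and 38.8 in Ctrl 1, 2 and 3 and 35.0, 46.7 and 58.3 in ZA 1, 2 and 3. ZA 2 and ZA 3 were above every Ctrl library and ZA 1 lay inside the Ctrl range, so the groups overlapped. The mean was 34.2 ± 4.82 FPKM (SD, n = 3) in Ctrl and 46.7 ± 11.7 FPKM (SD, n = 3) in ZA, 1.36 times as high. The log2 fold change was 0.42 ± 0.17 (SE), with a 95% confidence interval of 0.029 to 0.80, an unadjusted limma p of 0.0381 and an adjusted p of 0.370. The residual SD of Irf7 within groups was larger than that of 99.5% of the genes tested. Without ZA 3 the log2 fold change was 0.24.

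Stat2, the STAT protein that works mainly in interferon signalling, had 19.5, 21.8 and 22.6 FPKM in Ctrl 1, 2 and 3 and 22.1, 25.0 and 30.6 FPKM in ZA 1, 2 and 3. As for Irf7, ZA 1 lay inside the Ctrl range and ZA 3 was the highest library. The mean went from 21.3 ± 1.61 to 25.9 ± 4.36 FPKM (SD, n = 3 each), with a log2 fold change of 0.26 ± 0.11 (SE), a 95% interval of 0.019 to 0.50 and a limma adjusted p of 0.369. Without ZA 3 the log2 fold change was 0.14.

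Irf9, the DNA-binding partner of STAT2, had 23.0, 23.8 and 24.6 FPKM in the Ctrl libraries and 25.7, 25.3 and 27.2 FPKM in the ZA libraries. All ZA libraries were above all Ctrl libraries, by a small margin. Its log2 fold change of 0.13 ± 0.04 (SE) had the lowest p of the 9 genes, 0.0108 unadjusted and 0.248 adjusted by limma. An unadjusted p under 0.05 was kept by Irf9 in each fit that left out 1 library.

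Irf1, a factor of interferon-gamma responses and of antigen presentation, had 22.9, 24.7 and 23.8 FPKM in Ctrl and 24.2, 26.4 and 28.0 FPKM in ZA. ZA 1 again lay inside the Ctrl range. The log2 fold change was 0.13 ± 0.05 (SE) with a limma adjusted p of 0.365, and it was 0.085 without ZA 3. For Irf7, Stat2 and Irf1 together, no unadjusted p stayed under 0.05 without Ctrl 1, without ZA 2 or without ZA 3.

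The other 5 genes differed little between the groups. Stat6 had 71.8, 70.5 and 71.6 FPKM in Ctrl and 72.6, 72.4 and 74.8 FPKM in ZA. The groups did not overlap, but the log2 fold change was only 0.039 ± 0.024 (SE, limma adjusted p = 0.542). Irf3, which with IRF7 starts interferon beta transcription, had 14.3, 14.2 and 13.2 FPKM in Ctrl and 14.2, 15.5 and 13.9 FPKM in ZA. Its groups overlapped, with a log2 fold change of 0.060 ± 0.047 (SE, limma adjusted p = 0.641). In Irf5 the values were 31.8, 31.3 and 31.5 FPKM in Ctrl and 31.6, 32.2 and 32.3 FPKM in ZA, and the 95% interval of the log2 fold change ran from -0.034 to 0.078. For Stat3 they were 36.1, 35.1 and 33.1 FPKM in Ctrl and 35.4, 34.9 and 35.3 FPKM in ZA, with an interval of -0.060 to 0.095. Irf8 had 82.6, 85.8 and 87.0 FPKM in Ctrl and 84.6, 85.3 and 86.6 FPKM in ZA, with an interval of -0.055 to 0.066. For these 3 genes the intervals leave room for changes in either direction, none as large as the fitted difference of Irf7, Stat2, Irf1 or Irf9.

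**Figure D2:**
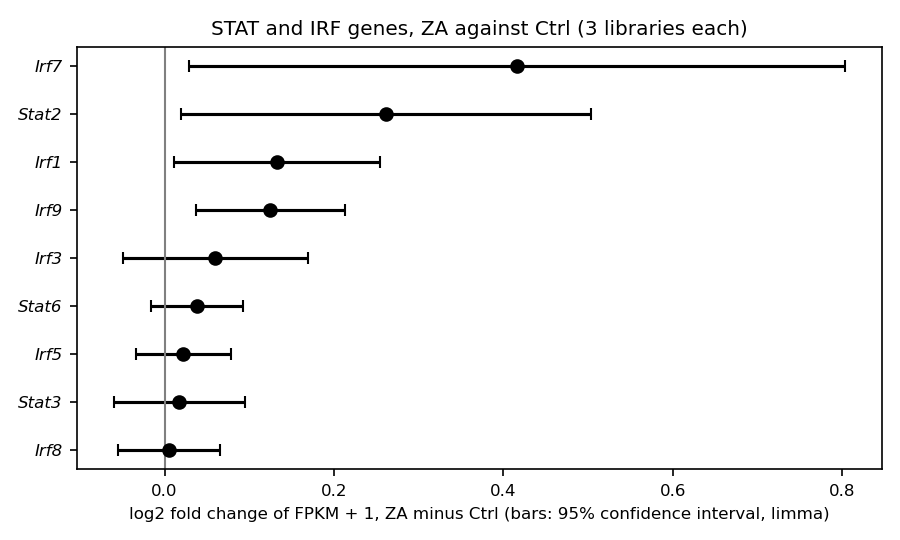
Log2 fold change of FPKM + 1, ZA minus Ctrl (horizontal axis), of the 9 STAT and IRF genes with its 95% confidence interval from limma, 3 libraries in each group. Irf7 is highest at 0.42 with the widest interval, and Irf8 is lowest at 0.0054.

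Counting error was small beside the spread between libraries for Irf7, Stat2 and Irf1. It was at most 2.67% of the value over the 9 genes, for Irf3. The coefficient of variation of Irf7 was 14.1% in Ctrl and 25.0% in ZA, that of Stat2 was 7.56% and 16.8%, and that of Irf1 was 3.92% and 7.36%, with counting errors of at most 2.06%, 1.66% and 1.77%. For Irf5 it was 0.833% and 1.07%, near its counting error of at most 1.01%. Stat3 in ZA (0.817%), Stat6 in Ctrl (0.973%) and Irf8 in ZA (1.19%) were also near or below their counting errors of at most 1.25%, 0.947% and 0.919%. The residual SD of Irf5 was larger than that of only 1.71% of the genes tested. In the GENCODE M21 gene models the exons of Irf5 share 14.1% of their bases with exons of Tnpo3 on the other strand, while the share is at most 3.4% for the other 8 genes. Whether strand was used in counting was not given in the sources used here, so fragments from such bases cannot be told apart.

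Within groups, Irf7 and Stat2 had the closest deviations of any pair of the 9 genes. On the log2 scale Irf7 deviated from its group mean by -0.21, 0.026 and 0.19 in Ctrl 1, 2 and 3 and by -0.38, 0.030 and 0.34 in ZA 1, 2 and 3. Stat2 deviated by -0.12, 0.034 and 0.085 in Ctrl and by -0.21, -0.037 and 0.25 in ZA. For both genes replicate 1 was the lowest and replicate 3 the highest library of each group. The correlation of these within-group deviations over the 6 libraries was 0.977 between Irf7 and Stat2, 0.906 between Irf7 and Irf1, 0.780 between Irf7 and Irf9 and 0.783 between Irf7 and Irf8, whose group means hardly differed. Irf8 and Irf9 had a value of 0.851, and Irf1 and Irf9 one of 0.606. Against Irf7 the values were 0.545 for Stat6, 0.459 for Irf5, -0.467 for Stat3 and -0.315 for Irf3. These values are descriptions of 6 shared libraries.

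Over all 9800 genes, those most like each factor across the 6 libraries were named by the correlation of log2(FPKM + 1). For Irf7 they were Slfn5 (r = 0.998) and Sp110 (r = 0.997), and for Stat2 they were Naa16 (r = 0.998) and Oasl2 (r = 0.996). The nearest genes were Nsrp1 and Lacc1 for Irf1, Ncl and Sertad3 for Irf9, Zbtb33 and Frmd4a for Stat6, and Ube2m and Tmsb10 for Irf3. They were Dtd1 and Spred1 for Irf5, Zfp574 and Ippk for Stat3, and Ssb and Zfp638 for Irf8. Each was the highest of many correlations over only 6 points, between 0.980 and 0.998.

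The ligands that start the pathway were mostly under the level that was tested. Of 21 interferon and cytokine genes, 4 reached the level needed for a test, with 2 higher and 2 lower in ZA. Ifnb1, which codes for interferon beta, was listed at 0 in every library but ZA 2, where 1 fragment gave 0.0289 FPKM. With 3 fragments taken as the smallest number that can be told from 0, Ifnb1 was not detectable at this depth in any library. Ebi3, a chain of interleukin-27, had 43.8, 44.3 and 43.6 FPKM in Ctrl and 46.1, 50.2 and 50.4 FPKM in ZA (log2 fold change 0.15 ± 0.036 SE, limma adjusted p = 0.149). Csf1, which codes for M-CSF, had 6.09, 5.66 and 4.52 FPKM in Ctrl and 4.42, 4.28 and 3.71 FPKM in ZA, with a log2 fold change of -0.32 ± 0.094 (SE, adjusted p = 0.241).

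Of 18 receptor chains 15 were tested, with a median log2 fold change of 0.029. Of these, 12 were higher and 3 lower in ZA, against 56.9% of all genes higher, and 9 were higher after either rescaling. At an unadjusted p under 0.05 there were 5, all higher, against 7.50% of all genes higher and 4.85% lower, and none passed the adjusted threshold. Ifnar1, a chain of the type I interferon receptor, had 24.0, 23.4 and 24.0 FPKM in Ctrl and 25.1, 25.6 and 25.2 FPKM in ZA, with a log2 fold change of 0.086 ± 0.026 (SE). Il2rg, the shared chain of the interleukin-4 receptor, had 71.7, 75.1 and 73.5 FPKM in Ctrl and 76.3, 77.8 and 83.4 FPKM in ZA. Neither pair of groups overlapped, and the adjusted limma p-values were 0.248 and 0.301. Ifngr1 and Il10ra were also above Ctrl in every ZA library, with log2 fold changes of 0.071 and 0.081. Ifngr2 (0.029), Ifnar2 (0.0082), Il4ra (0.0011) and Il6st (-0.045) had overlapping groups, and Ifnar2 and Il4ra turned sign when libraries were rescaled.

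The 4 Janus kinases, which phosphorylate the STAT proteins, had a median log2 fold change of 0.018 and none reached an unadjusted p of 0.05. Tyk2, the kinase on IFNAR1, had 20.2, 20.9 and 19.9 FPKM in Ctrl and 22.0, 20.4 and 22.3 FPKM in ZA. Jak2 had a mean of 4.13 ± 0.181 FPKM in Ctrl and 4.25 ± 0.180 FPKM in ZA, and Jak1 one of 45.5 ± 0.834 and 45.6 ± 0.791 FPKM (SD, n = 3 each). Under both rescalings only 2 of the 4 kinases stayed higher in ZA.

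Among the sensors, adaptors and kinases that switch on IRF3, IRF5 and IRF7, 23 genes were tested, with a median log2 fold change of 0.049. Of these, 19 were higher and 4 lower in ZA, against 56.9% of all genes higher, and 16 were higher after either rescaling. An unadjusted p under 0.05 was reached by 2, both higher, a share near the 7.50% of all genes. Unc93b1, which brings Toll-like receptors to endosomes, had 562, 564 and 569 FPKM in Ctrl and 590, 590 and 598 FPKM in ZA (log2 fold change 0.069 ± 0.018 SE, limma adjusted p = 0.193). Ikbke, a kinase of IRF3 and IRF7, had 44.6, 47.3 and 45.7 FPKM in Ctrl and 48.1, 49.3 and 48.8 FPKM in ZA (0.086 ± 0.029 SE, limma adjusted p = 0.284). Tbk1, its close relative, had a mean of 31.5 ± 0.739 FPKM in Ctrl and 31.9 ± 0.858 FPKM in ZA (SD, n = 3 each).

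The inhibitors of the pathway gave 12 higher and 6 lower genes of 18 tested, against 56.9% of all genes higher, with a median of 0.032. After either rescaling 10 were higher. At an unadjusted p under 0.05 there were 4, all higher, against 7.50% of all genes higher and 4.85% lower. Ptpn6, the phosphatase SHP-1, had 150, 149 and 154 FPKM in Ctrl and 156, 163 and 169 FPKM in ZA, and Pias3, an inhibitor of STAT3, had 4.10, 4.38 and 4.09 FPKM in Ctrl and 4.77, 4.66 and 4.60 FPKM in ZA. Their log2 fold changes were 0.11 and 0.13, with limma adjusted p-values of 0.243 and 0.256. Socs1, a feedback inhibitor of Janus kinases, was low, at 1.24, 1.69 and 1.41 FPKM in Ctrl and 1.59, 2.30 and 1.84 FPKM in ZA, with overlapping groups. Socs3 had a mean of 4.77 ± 0.693 FPKM in Ctrl and 4.77 ± 0.485 FPKM in ZA. Usp18, which blocks the interferon receptor, had 7.78, 9.72 and 10.5 FPKM in Ctrl and 8.38, 11.8 and 15.1 FPKM in ZA. The libraries of Usp18 stood in the order seen for Stat2 and Irf7 apart from ZA 1, and its adjusted p was 0.569.

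**Figure D3:**
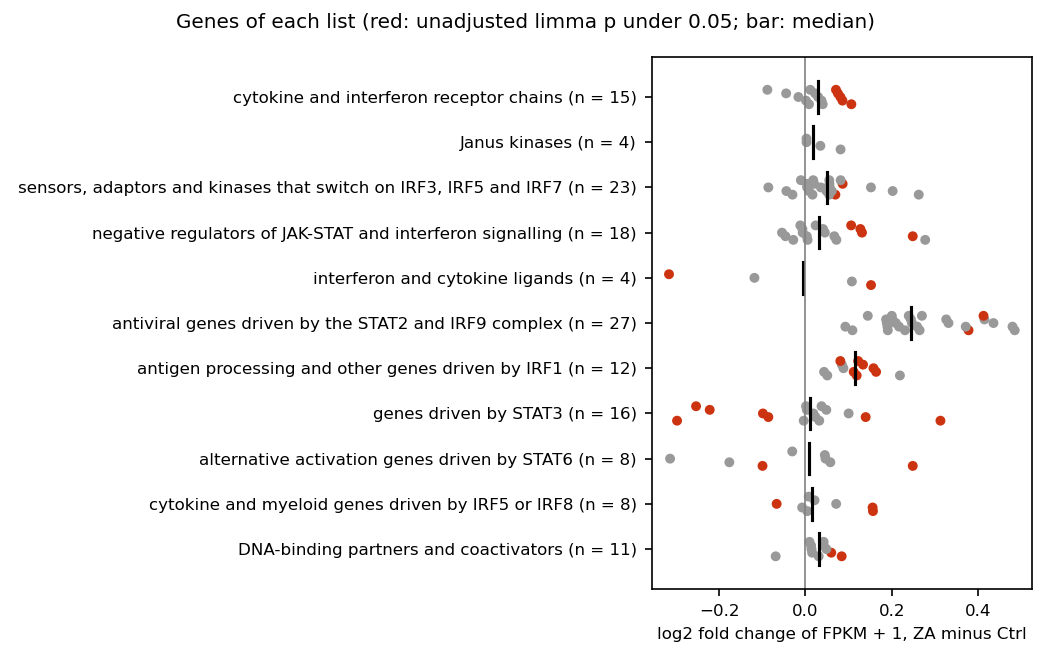
Log2 fold change of FPKM + 1, ZA minus Ctrl (horizontal axis), of every tested gene of 11 lists around the STAT and IRF factors, 1 point per gene and a bar at the median; red points have an unadjusted limma p under 0.05. All 27 antiviral genes and all 12 IRF1 genes lie above 0, while the genes driven by STAT3 lie on both sides.

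The tested antiviral genes driven by the complex of STAT2 and IRF9 were all on the side of ZA. Of 30 genes on the list 27 were tested, and Mx1, Mx2 and Oas1b were not among the rows read. The list was written with earlier results of these data known, so its counts are descriptions. All 27 were higher in ZA, against 56.9% of all genes, and stayed so after centring and quantile normalization. Their median log2 fold change was 0.24 against 0.010 for all genes. None passed the adjusted threshold, and 2 reached an unadjusted p under 0.05, a share near the 7.50% of all genes that were higher. With voom on the recovered fragments 16 of the 27 reached it and 0 passed the adjusted threshold. With the replicate number as a block 24 reached it and 3 passed, but the labels do not say that same-numbered libraries belong together. Ifi27l2a had 49.7, 53.6 and 59.8 FPKM in Ctrl and 60.2, 69.9 and 83.9 FPKM in ZA, with no overlap, a log2 fold change of 0.38 ± 0.11 (SE) and a limma adjusted p of 0.236. Oas3, an enzyme that makes an activator of RNase L, had 12.2, 13.7 and 15.1 FPKM in Ctrl and 14.1, 18.6 and 23.7 FPKM in ZA, with overlapping groups and an adjusted p of 0.352. Some of the 27 are near-identical relatives, such as Oas1a with Oas1g and Ifit3 with Ifit3b, and the split of fragments between them is uncertain.

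The libraries stood in nearly the same order for these antiviral genes as for Irf7 and Stat2, but with ZA 1 below Ctrl 2, which it exceeded for both factors. The mean log2(FPKM + 1) of the 27 genes was 3.68, 3.87 and 4.02 in Ctrl 1, 2 and 3 and 3.81, 4.14 and 4.43 in ZA 1, 2 and 3. Ctrl 1 was lowest and ZA 3 highest. The median log2 fold change of the list was 0.097 without ZA 3 and 0.41 without ZA 1, and the genes at an unadjusted p under 0.05 numbered 1 and 25. Higher in ZA were 26 of the 27 genes without ZA 3 and 27 without ZA 1.

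Of 14 listed genes driven by IRF1, which act mostly in antigen processing, 12 were tested, and Cxcl9 and Nos2 averaged under 1 FPKM. This list too was written with earlier results of these data known, and its genes are likewise not separate observations. All 12 were higher in ZA, against 56.9% of all genes, with a median log2 fold change of 0.12. An unadjusted p under 0.05 was reached by 7, where 7.50% of all genes were higher. That number was 3 without ZA 3, 4 without Ctrl 1, 10 without ZA 1, 4 after quantile normalization and 4 of 14 genes without a filter. After that normalization 11 of 12 were higher, and B2m had a log2 fold change of 0. Casp1, which cleaves interleukin-1 beta, had 40.0, 40.9 and 40.3 FPKM in Ctrl and 44.2, 42.9 and 44.6 FPKM in ZA. B2m, the light chain of MHC class I, had 3435, 3322 and 3368 FPKM in Ctrl and 3536, 3584 and 3586 FPKM in ZA. Both were above Ctrl in every ZA library, with log2 fold changes of 0.12 ± 0.026 and 0.081 ± 0.020 (SE) and limma adjusted p-values of 0.113 and 0.168. On the log2 scale the list mean was lowest in Ctrl 1 (4.93) and highest in ZA 3 (5.19), and ZA 1 (4.99) lay inside the Ctrl range.

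Targets of the other factors lay on both sides of 0. Of 16 genes driven by STAT3, 10 were higher and 6 lower in ZA, with a median of 0.011 that became -0.0016 after centring, and 2 higher and 5 lower genes reached an unadjusted p under 0.05, against 7.50% and 4.85% of all genes. Cebpd, a transcription factor of myeloid cells, had 10.1, 9.77 and 10.2 FPKM in Ctrl and 12.1, 11.9 and 14.1 FPKM in ZA, with a log2 fold change of 0.31 ± 0.060 (SE) and a limma adjusted p of 0.0895. Ccnd1, which codes for cyclin D1, had 10.3, 11.5 and 12.1 FPKM in Ctrl and 8.52, 9.38 and 10.05 FPKM in ZA, with a log2 fold change of -0.25 ± 0.068 (SE) and a limma adjusted p of 0.203.

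Only 8 of 18 genes of alternative activation driven by STAT6 averaged 1 FPKM or more, with 4 higher and 4 lower in ZA. Their median of 0.0071 became -0.0052 after centring. An unadjusted p under 0.05 was reached by 1 gene in each direction, against 7.50% of all genes higher and 4.85% lower. Pparg, a nuclear receptor of lipid metabolism, had 28.2, 27.5 and 26.1 FPKM in Ctrl and 25.2, 25.4 and 25.5 FPKM in ZA (log2 fold change -0.099 ± 0.033 SE, limma adjusted p = 0.284), and the gene in the other direction was Socs1. Of 12 genes driven by IRF5 or IRF8, 8 were tested, and Il12a, Il12b, Il23a and Il6 averaged under 1 FPKM. Of these 8, 6 were higher and 2 lower, against 56.9% of all genes higher, and 4 were higher after centring. Cybb, the large subunit of the phagocyte NADPH oxidase, had 276, 273 and 280.3 FPKM in Ctrl and 300.2, 299 and 326 FPKM in ZA, and Cd180, a relative of the Toll-like receptors, had 161, 163 and 166 FPKM in Ctrl and 156, 157 and 155 FPKM in ZA. Their limma adjusted p-values were 0.113 and 0.258.

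The DNA-binding partners and coactivators of these factors gave 10 higher and 1 lower gene of 11, against 56.9% of all genes higher. Their median log2 fold change was 0.031, and 9 were higher after centring and 8 after quantile normalization. An unadjusted p under 0.05 was reached by 2, both higher, against 7.50% of all genes higher. Nfkb1, a subunit of NF-kB, had 34.0, 33.9 and 34.3 FPKM in Ctrl and 34.8, 36.1 and 37.5 FPKM in ZA, and Spi1, the partner PU.1 that IRF8 needs on many myeloid genes, had 229, 237 and 228 FPKM in Ctrl and 243, 236 and 245 FPKM in ZA. Their adjusted limma p-values were 0.341 and 0.394.

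**Figure D4:**
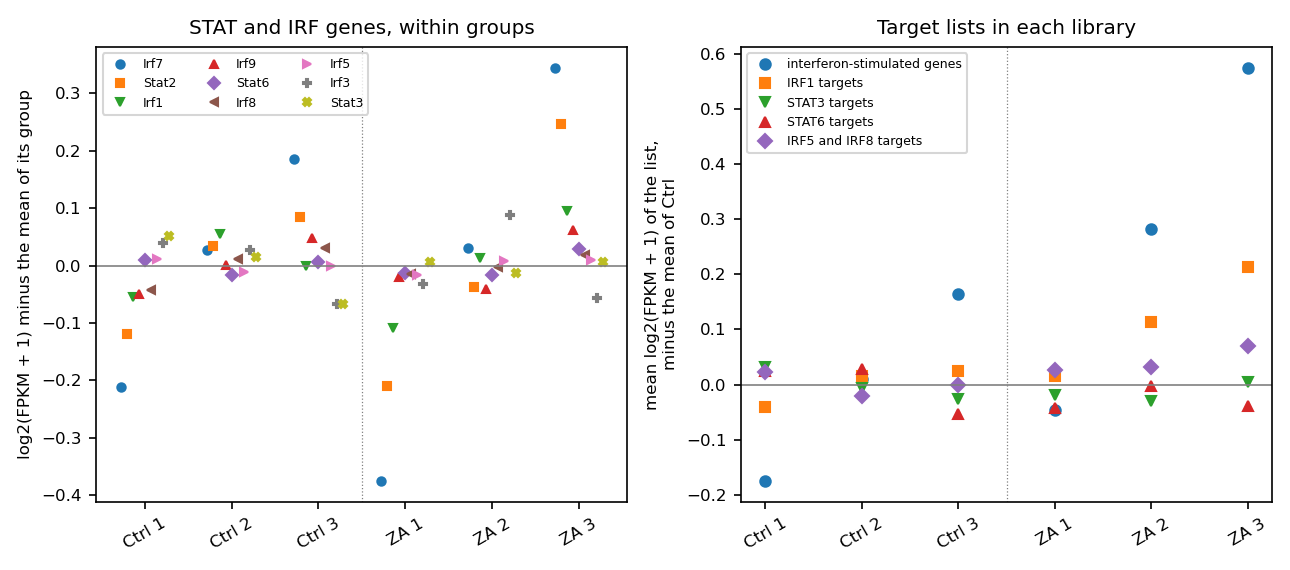
Left, log2(FPKM + 1) of the 9 STAT and IRF genes minus the mean of their own group in each library; right, the mean log2(FPKM + 1) of 5 target lists in each library minus the mean of the Ctrl libraries. Irf7 and Stat2 are lowest in replicate 1 and highest in replicate 3 of both groups, and the antiviral genes (interferon-stimulated genes in the legend) are lowest in Ctrl 1 and highest in ZA 3.

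The table also held 7 other STAT and IRF genes, and 4 of them were tested, with means between 4.65 and 31.8. All 4 were higher in ZA, against 56.9% of all genes, with log2 fold changes of 0.024 to 0.18. None reached an unadjusted p of 0.05. The other 3 had means of at most 0.782 FPKM and were not tested.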

How the data were processed

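RNA of 6 BMDM libraries was sequenced as paired-end reads. The authors deposited 1 table of FPKM values per gene and library. The submitters' processing notes name the build mm9, and the aligner, counting program and annotation are not given in the sources used here. In all but 11 of 35434 rows the symbol and the 6 values run together. Each row was separated with the help of how the numbers are written and of the rule that each FPKM is a whole number of fragments at 1 gene length. This restored 35383 rows with 99.7% of the fragments, and 51 rows with no clear reading were left out. Where the other fragments lie was not tested. The 11 intact rows were restored identically, and of 2000 simulated rows 1988 were cut correctly, 0 wrongly and 12 left out.

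The comparison used limma 3.58.1 (R 4.3.3), with lmFit and a trended eBayes prior, two-sided, on log2(FPKM + 1). It covered 9800 genes that averaged 1 FPKM or more, with Benjamini-Hochberg adjustment over all of them. The fit was tested on simulated data. Groups were taken from the sample labels. Libraries of 1 group differed beyond sampling noise, with a chi-square per gene of 3.52 to 9.73. The 14 alternatives were another pseudocount, 2 filters, 2 rescalings, a prior without a trend, the replicate number as a block, voom on recovered fragments and leaving out each library.

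The 9 genes and all lists were chosen with earlier results of these data known. Named genes are the 9, for each list the 2 with the largest absolute moderated statistic, receptors, kinases and inhibitors that act directly on a STAT or IRF protein, and the 2 genes most correlated with each of the 9. Other STAT and IRF genes are given by count and range only, although the rule allowed naming them. Promoters came from RefSeq (GRCm38.p6) and exon overlap from GENCODE M21. Scripts used Python 3.11.15, NumPy 2.4.6, pandas 2.3.3, numba 0.67.0 and Matplotlib 3.10.9.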

Additional observations from a re-analysis of the deposited data

How the results depend on the processing

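Of the 9 genes, 6 kept their direction and their side of the adjusted threshold under all 14 alternatives. With the replicate number as a block, Irf7 passed the threshold at the same log2 fold change of 0.42 (limma adjusted p = 0.0360, range over its alternatives 0.0360 to 0.624), and no other of the 9 genes did. The samples share only a number: same-numbered libraries deviated together with correlations of 0.284, 0.0393 and 0.280, and 6 of 6 libraries correlated best with their own number in the other group, which is a hint from the data and not from the design. Irf8 turned sign after centring on the median (-0.0069), after quantile normalization (-0.0023) and without single libraries (-0.016 to 0.021), and Stat3 ranged from -0.016 to 0.043 without single libraries. Without single libraries Irf7 ranged from 0.24 to 0.60, Stat2 from 0.14 to 0.37, Irf1 from 0.085 to 0.19 and Irf9 from 0.094 to 0.15. Of the 9 genes, 4 had an unadjusted p under 0.05, against 1 without a filter or without a trend. Of the 27 antiviral genes 2 did, against 24 with the replicate block, where 3 also passed the adjusted threshold, and 16 with voom.

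The number of genes called among all tested was 36, against 1 without a filter, 20 after quantile normalization, 1 with a prior without a trend, 78 with the replicate block, 132 with voom and 0 to 25 without single libraries. The cause was not tested. Genes at an unadjusted p under 0.05 split into 735 higher and 475 lower, 508 and 664 after centring, and 574 and 589 after quantile normalization. Of the other named genes, over 443 fits of 32 genes, 418 kept direction and side, 7 newly passed the threshold and 18 turned sign. After centring and quantile normalization the log2 fold changes were -0.0041 and -0.0081 for Ifnar2, -0.011 and -0.010 for Il4ra, -0.0099 and -0.0079 for Jak1 and -0.0092 and -0.0026 for Socs3. Without single libraries they ranged from -0.024 to 0.027 for Il4ra, -0.011 to 0.017 for Jak1, -0.0012 to 0.038 for Tbk1 and -0.062 to 0.099 for Socs3. For Irf7 and Stat2 the spread between the 3 libraries of a group was larger than the counting error. The SE of the log2 fold change was 0.17 for Irf7 and 0.11 for Stat2. In the fit that used the replicate block these SEs were 0.056 and 0.051, at unchanged log2 fold changes. What limits the number of calls was not tested.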
